A study of Mus musculus with 12 samples.

Results

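Pressure overload was compared with sham surgery in the hearts of wild type mice: 3 hearts after transverse aortic constriction (TAC) and 3 after sham surgery, out of 12 hearts in the series. All animals were male C57BL/6J mice aged 10 weeks, and their hearts were taken 2 weeks after the operation. The other 6 hearts came from Adam12 knockout mice, 3 after sham surgery and 3 after TAC, and were used for the spread within groups and for the comparison at the end. Each heart gave 250 ng of total RNA for a biotin-labelled Clariom D mouse array, 1 array per heart, and the labels call the 3 hearts of a group biological replicates. Whether whole hearts or single chambers were used, how tightly the aorta was narrowed and how far each heart had grown are not known here. Every gene whose probe set carried exactly 1 symbol was tested, 26989 in all, and all levels and differences below are on the log2 scale of the array signal.

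Narrowing the aortic arch makes the left ventricle eject blood against a higher pressure. Heart muscle cells answer such a load by growing, and as they grow they turn on genes of the fetal heart, among them skeletal actin, the slow myosin heavy chain and the natriuretic peptides. Fibroblasts become activated and lay down collagen, leukocytes enter the tissue, and the muscle turns down the burning of fatty acids, its main fuel in the healthy adult. The 6 arrays had like overall signal, with a median over all genes from 5.36 to 5.50. The 9 measured markers of heart muscle cells had a mean level from 15.65 to 15.77 on these arrays, so the tissue label held. In bulk RNA, fewer cells of a type and less RNA per cell cannot be told apart.

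After TAC 48 genes had changed at an adjusted p under 0.05, which was 0.178% of the genes tested. Of these, 18 rose (0.0667%) and 30 fell (0.111%), and their adjusted p lay between 0.0356 and 0.0486, close under the threshold. The sham and TAC groups did not overlap for any of the 48. Changes were moderate in size, with a median of 0.78 among the genes that rose and -0.82 among those that fell, and 13 genes changed at least 2-fold. With each array centred on its median the count was 36, of which 8 rose and 28 fell. Another 184 genes had an adjusted p between 0.05 and 0.1. The count rested on single hearts: it was 264 without TAC replicate 3, 15 without sham replicate 2, 6 without TAC replicate 1 and 0 without sham replicate 1, sham replicate 3 or TAC replicate 2. Leaving out a knockout heart, which changes only the estimate of the spread, gave 12, 0 and 1 genes without knockout sham replicates 1, 2 and 3, and 27, 65 and 0 without knockout TAC replicates 1, 2 and 3. The 48 differences kept their sign in all 22 alternative settings tried. Because the groups of all 48 did not overlap, leaving out a heart could not have turned a sign. Several other settings change only the spread or the genes tested, so the kept sign says little about stability.

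**Figure D1:**
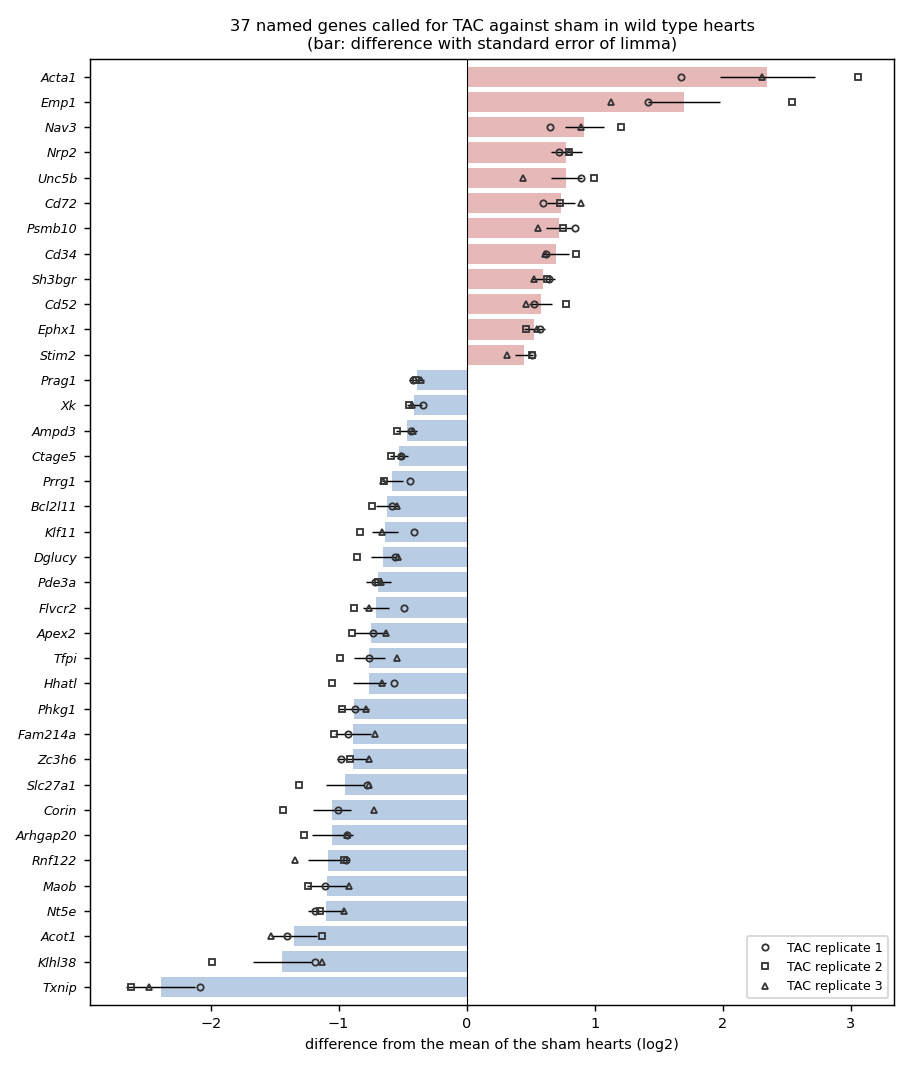
Difference from the mean of the sham hearts (log2) of the 37 genes called for TAC against sham in wild type hearts, leaving out predicted genes, pseudogenes and small RNAs. Bars show the difference between group means with the standard error of limma, and symbols show the 3 TAC hearts. All 3 symbols of each gene lie on the same side of 0, from Acta1 at the top (2.35) to Txnip at the bottom (-2.39).

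Acta1, the skeletal alpha-actin that the fetal heart expresses and the adult heart largely replaces with cardiac actin, showed the largest rise of all called genes. Its levels in replicates 1, 2 and 3, the order used for all values below, were 13.61, 14.42 and 14.07 after sham surgery and 15.71, 17.09 and 16.34 after TAC. Every TAC heart stood more than 1 unit above every sham heart, and replicate 2 stood highest. The difference was 2.35 ± 0.37 (standard error of limma), a 5.08-fold rise at an adjusted p of 0.0374. The 250 bases before its start of transcription are shown because Acta1 is a textbook target of the factors that switch on the fetal program. They come from RefSeq (GRCm38.p6, chr8:123894776-123895025, minus strand), with matches to 3 muscle or core promoter motifs in capitals.
Acta1: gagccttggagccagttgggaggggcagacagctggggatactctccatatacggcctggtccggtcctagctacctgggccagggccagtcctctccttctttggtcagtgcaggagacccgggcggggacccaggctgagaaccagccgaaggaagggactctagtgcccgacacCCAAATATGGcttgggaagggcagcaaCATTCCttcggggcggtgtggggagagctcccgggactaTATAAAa

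The first capitals, CCAAATATGG, begin at position -73, counted back from the first base before the start (-1), and match the CArG box, the element bound by serum response factor. A CArG box was found in 1.47% of the 32851 promoters of this length, searched on both strands. CATTCC, the letters of the MCAT element bound by TEAD factors, begins at -46 and was found in 12.6% of promoters. TATAAA, the letters of the TATA box, begins at -7 and was found in 12.4%. All these positions depend on the start given by RefSeq. Of the 9 genes called higher that had a promoter in the table, only Acta1 held a CArG box, and of the 20 called lower Ampd3 held 1 as well. A match describes these letters and shows no binding.

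The other genes of the fetal and hypertrophy program lay above their sham level without passing the test. Of 11 measured members 1 was called, all 11 had a difference above 0 (57% of all genes), and 7 had TAC hearts that all exceeded the sham hearts, as 9.03% of all genes did. The median difference was 0.73, against 0.02 over all genes. Nppb, which encodes B-type natriuretic peptide, read 13.02, 14.06 and 13.37 after sham surgery and 14.36, 15.38 and 14.19 after TAC. Its highest sham heart and lowest TAC heart lay close together, and its difference of 1.16 ± 0.32 had an adjusted p of 0.163. Myh7, the slow myosin heavy chain of the fetal ventricle, read 13.47, 13.44 and 13.28 in sham hearts and 13.68, 15.02 and 14.10 in TAC hearts. The sham hearts were tight and the TAC hearts spread over more than 1 unit, with replicate 1 barely above sham. This left a difference of 0.87 ± 0.25 at an adjusted p of 0.183. Xirp2, an actin-binding protein of the intercalated disc, differed by 1.02 ± 0.23 (adjusted p = 0.101). Nppa, the gene of atrial natriuretic peptide, read 19.24, 18.78 and 17.44 in sham hearts and 18.97, 19.50 and 19.17 in TAC hearts. Those groups overlapped, the difference was 0.73 ± 0.46, and the levels lay near the highest signal in the table, 19.93. The Nppa difference was 0.20 without sham replicate 3 and 1.11 without sham replicate 1. With the mean of the atrial markers Myl7, Sln and Myl4 as a covariate it was 1.16. All 11 members were highest in TAC replicate 2, and without that heart the median was 0.49 and the difference of Myh7 0.49. Without sham replicate 3 the median was 0.47.

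**Figure D2:**
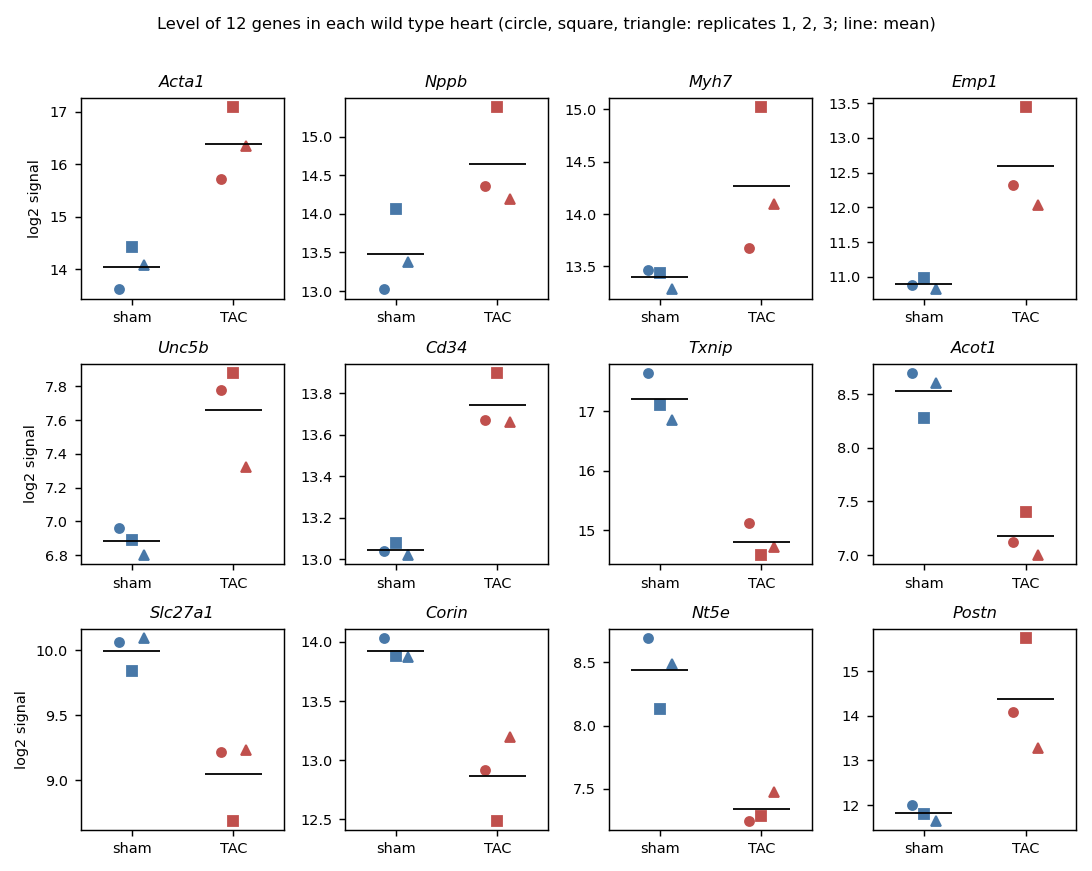
Log2 signal of 12 genes in each of the 6 wild type hearts, with circles, squares and triangles for replicates 1, 2 and 3 and a line at each group mean. Acta1, Emp1, Unc5b and Cd34 rose and Txnip, Acot1, Slc27a1, Corin and Nt5e fell at an adjusted p under 0.05. Nppb, Myh7 and Postn did not pass. Their TAC hearts lie far apart, as do those of Acta1 and Emp1, which passed.

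The contractile genes of the adult heart showed no such shift. None of 18 adult sarcomere genes was called, and their median difference was -0.01, with signs on both sides under other settings. Myh6, the fast myosin heavy chain of the adult mouse ventricle, differed by -0.03 ± 0.06 from a level of 19.36 ± 0.03 (SD, n = 3). Atp2a2, the calcium pump SERCA2 of the sarcoplasmic reticulum, differed by -0.06 ± 0.06. Both lie near the top of the signal scale. Nebl (nebulette, a Z-disc protein), Mybpc3 (cardiac myosin-binding protein C), Myom2 (an M-band protein) and Des (desmin) had the smallest p of the list, with differences of -0.27, 0.20, -0.37 and 0.15.

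Sh3bgr, which encodes a small protein abundant in heart and skeletal muscle, rose by 0.60 ± 0.09. Its sham levels were 10.90, 11.01 and 11.01 and its TAC levels 11.62, 11.60 and 11.50. Both groups were tight and well apart. Hhatl, a membrane protein of striated muscle related to hedgehog acyltransferase, fell by 0.76 ± 0.13 (adjusted p = 0.0486). Klhl38, a kelch protein of striated muscle, fell by 1.44 ± 0.23, from 12.70, 12.23 and 12.13 in sham hearts to 11.17, 10.36 and 11.22 in TAC hearts. TAC replicate 2 was lowest, and its difference without that heart was -1.16.

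Matrix genes had the largest median differences among the lists of functional groups, yet no member passed the test. Of 18 collagens 0 were called, all 18 had a difference above 0 and 12 did not overlap upward, with a median of 0.86. Of 21 matricellular and other matrix proteins 0 were called, all 21 lay above 0 and 10 did not overlap upward, with a median of 0.95. Over all genes 57% lay above 0 and 9.03% did not overlap upward. Postn, the periostin gene of activated fibroblasts, had the largest difference of all genes tested. It read 11.99, 11.80 and 11.65 after sham surgery and 14.09, 15.74 and 13.29 after TAC. The 3 sham hearts were nearly alike, while the TAC hearts ranged over more than 2 units with replicate 2 at the top and replicate 3 at the bottom. Its difference was 2.56 ± 0.45 at an adjusted p of 0.0604.

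That order of the TAC hearts ran through the matrix. The collagens' mean over the list exceeded the sham mean by 0.65 in TAC replicate 1, by 1.38 in replicate 2 and by 0.25 in replicate 3. TAC replicate 2 was the highest of the TAC hearts for all 18 collagens and all 21 matricellular genes, and replicate 3 was the lowest for 16 and 20 of them. Among all genes replicate 2 was highest for 7013 and replicate 3 lowest for 7829 of 26989. Without TAC replicate 2 the median was 0.47 for the collagens and 0.59 for the matricellular genes. Without TAC replicate 3 that of the matricellular genes was 1.38. The mean of 8 activated fibroblast markers stood 1.34, 2.81 and 0.37 above sham in TAC replicates 1, 2 and 3. These markers include Postn, which is also in the matricellular list, so a shared order of the hearts is partly built in. The part of activated fibroblasts in these differences was not tested. Col1a1 and Col3a1, the fibrillar collagens of scar, differed by 1.32 ± 0.42 (adjusted p = 0.22) and 1.49 ± 0.38 (adjusted p = 0.134), or by 0.72 and 0.97 without TAC replicate 2. Col4a1 and Col4a2, which form the chains of basement membrane collagen, came nearer the threshold at 1.00 ± 0.20 (adjusted p = 0.0803) and 1.03 ± 0.19 (adjusted p = 0.068). Col4a2 read 9.07, 9.0 and 9.07 in sham hearts and 9.93, 10.51 and 9.80 in TAC hearts, a narrower TAC spread than that of Col1a1, at 11.10, 12.40 and 10.07.

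Fn1, fibronectin, differed by 1.70 ± 0.46, Ccn2, connective tissue growth factor, by 1.06 ± 0.40, and Ccn5, a related matricellular protein, by 0.78 ± 0.15. Sparc, a collagen-binding protein, differed by 0.95 ± 0.17 at an adjusted p of 0.0604. Aspn, a small leucine-rich proteoglycan, and Svep1, a large extracellular adhesion protein, differed by 1.80 ± 0.35 and 1.33 ± 0.28. Mfap5, a microfibril protein, differed by 1.47 ± 0.36. None of these genes passed, and in each the TAC and sham hearts did not overlap.

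Among enzymes that process the matrix the picture was mixed. Of 14 genes for collagen processing and crosslinking 0 were called, 13 lay above 0 (57% of all genes) and the median was 0.35. P4ha2, a prolyl hydroxylase subunit, had the smallest p at a difference of 0.30 ± 0.09. Of 16 proteases and inhibitors 0 were called and the median was 0.32, or 0.18 without TAC replicate 2. Mmp2, a gelatinase made by fibroblasts, read 11.24, 11.14 and 11.06 in sham hearts and 13.14, 13.76 and 11.40 in TAC hearts. Replicate 3 stayed near sham while the other two stood far higher, and the difference was 1.62 ± 0.44 (adjusted p = 0.162). Timp1 and Timp4, inhibitors of these proteases, differed in opposite directions, by 0.82 ± 0.35 and -1.48 ± 0.44, and neither passed. Timp4 read 10.36, 9.61 and 9.59 in sham hearts and 7.82, 7.74 and 9.56 in TAC hearts, so again TAC replicate 3 lay next to sham.

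Signals that act on the matrix gave small medians. Of 19 genes of the TGF-beta and BMP pathway 0 were called, and the median of 0.03 turned to -0.03 without TAC replicate 2. Fstl1, a secreted glycoprotein that binds BMP ligands, differed by 1.09 ± 0.30, and Tgfb2, a ligand, by 0.84 ± 0.28. Tgfbr3 (betaglycan, a co-receptor) and Bmp6 (a ligand) differed by -0.50 ± 0.14 and -0.38 ± 0.12. The receptor Acvrl1 differed by 0.35 ± 0.10. Of 17 growth factor and receptor genes 0 were called. Igf1, insulin-like growth factor 1, differed by 0.75 ± 0.20. Erbb3, Erbb4 and Fgf16, receptors of neuregulins and a cardiac FGF, differed by -0.30 ± 0.07, -0.53 ± 0.19 and -0.52 ± 0.16. Adam12 itself, a membrane metalloprotease whose probe set also carries the symbol 5830403F22Rik, was read in a fit of all probe sets. TAC hearts gave 4.56, 4.73 and 4.80 against 4.54, 4.46 and 4.61 in sham hearts, overlapping groups with a difference of 0.16 ± 0.09 (adjusted p = 0.564). Adam12 knockout hearts read 4.33, 4.40 and 4.32 after sham surgery and 4.25, 4.40 and 4.36 after TAC on the same probe set. The wild type levels lay little above these and below the median over all genes, so this reading says little about a change of Adam12.

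**Figure D3:**
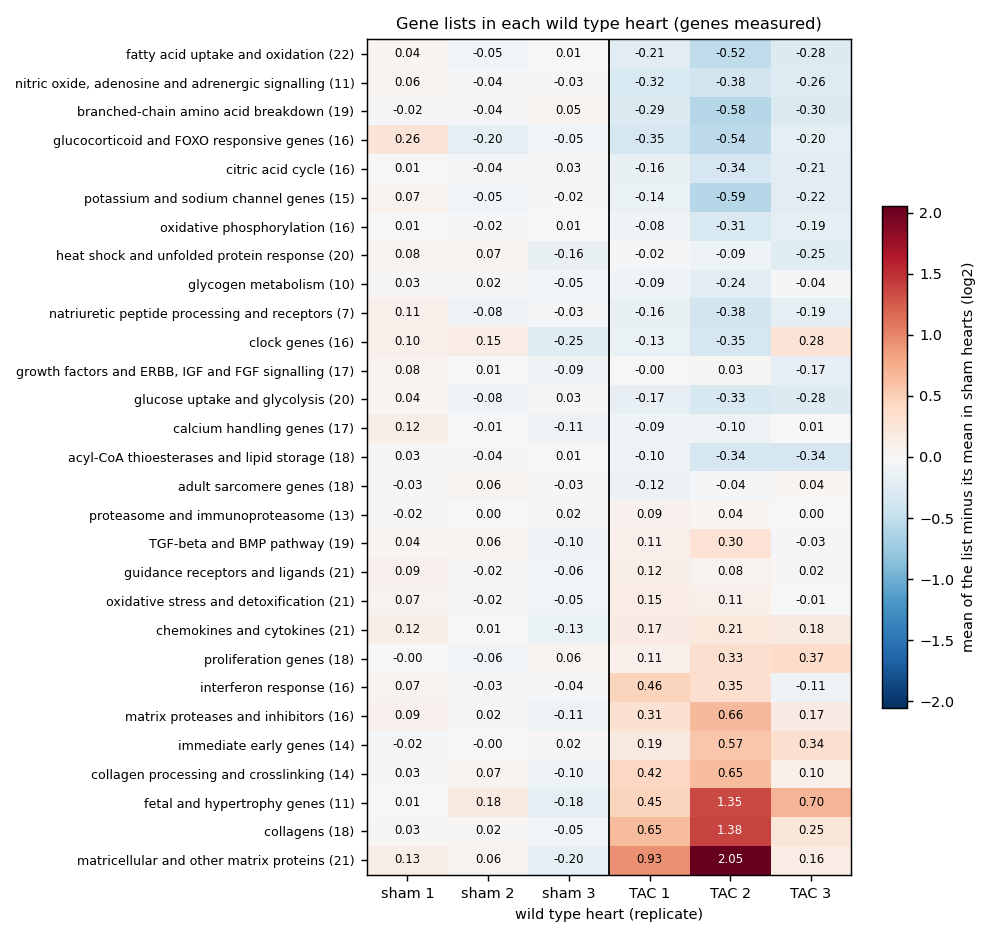
Mean of each gene list minus its mean in the 3 sham hearts (log2) in each wild type heart, for 29 lists of functional gene groups with the number of genes measured. Red is higher and blue lower than sham. TAC replicate 2 has the strongest colours in the matrix rows (2.05 for matricellular proteins, against 0.16 in replicate 3) and in fatty acid oxidation (-0.52).

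Emp1, a membrane protein of the claudin and PMP22 superfamily, was the second largest rise among called genes. It read 10.89, 10.99 and 10.82 in sham hearts and 12.32, 13.44 and 12.03 in TAC hearts. The TAC hearts stood in the same order as for Postn. The rise was 1.70 ± 0.28 (3.24-fold, adjusted p = 0.0486), and 1.28 without TAC replicate 2. Nav3, which binds the growing ends of microtubules, rose by 0.92 ± 0.15.

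Receptors of vessel growth and axon guidance were among the few called risers. Nrp2, the co-receptor of class 3 semaphorins and of the lymphatic growth factor VEGF-C, read 9.38, 9.09 and 9.37 after sham surgery and 10.00, 10.08 and 10.08 after TAC. The 3 TAC hearts agreed closely, and the rise was 0.78 ± 0.12 (adjusted p = 0.0374). Unc5b, the netrin receptor of sprouting endothelium, rose by the same 0.78 ± 0.12, from 6.96, 6.89 and 6.80 to 7.78, 7.88 and 7.32. Here replicate 3 showed the smaller change. Of 21 guidance receptors and ligands these 2 rose and 0 fell, and the median of the list was 0.07. Plxnd1, the endothelial receptor of semaphorin 3E, differed by 0.52 ± 0.11 (adjusted p = 0.0906) and Epha4, an ephrin receptor, by -0.78 ± 0.16 (adjusted p = 0.083).

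Cd34, a sialomucin of endothelial cells, blood progenitors and some fibroblasts, rose by 0.70 ± 0.10 (adjusted p = 0.0356). Its sham hearts read 13.04, 13.08 and 13.02 and its TAC hearts 13.67, 13.90 and 13.66, with little spread in either group. It was the 1 called gene of 15 endothelial markers, whose median was 0.04, or -0.11 without TAC replicate 1. Emcn (endomucin), Cdh5 (VE-cadherin) and Pecam1 (CD31) differed by 0.60 ± 0.14, 0.40 ± 0.09 and 0.26 ± 0.09, none of which passed. Tfpi, the endothelial inhibitor of the tissue factor pathway of clotting, fell by 0.76 ± 0.12, from 11.05, 10.73 and 10.76 to 10.08, 9.86 and 10.30. Of 10 pericyte and smooth muscle markers 0 were called, with a median that changed sign between settings.

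Leukocyte genes lay higher after TAC, and among the called genes 2 are of this kind. Cd52, a short glycoprotein on lymphocytes and macrophages, rose by 0.58 ± 0.09, from 6.18, 6.15 and 6.08 to 6.66, 6.91 and 6.60. Cd72, an inhibitory receptor of B cells that some macrophages also carry, rose by 0.74 ± 0.11, from 5.56, 5.65 and 5.59 to 6.20, 6.33 and 6.49. For Cd72 replicate 3 was highest, unlike the order seen in the matrix. Of 9 common leukocyte genes 1 rose, with a median of 0.49. All 9 lay above 0 (57% of all genes) and 8 did not overlap upward (9.03% of all genes). Rac2, Laptm5 and Tyrobp, which act in signalling and lysosomes of white blood cells, differed by 0.49 ± 0.11, 0.55 ± 0.15 and 0.55 ± 0.16 without passing. The list's mean stood 0.47, 0.45 and 0.39 above sham in TAC replicates 1, 2 and 3, so all 3 hearts were alike.

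Of 15 macrophage and monocyte markers 0 were called, with a median of 0.37, or 0.24 without TAC replicate 2. Above 0 lay 12 (57% of all genes), and 6 did not overlap upward (9.03% of all genes). Cd68, a lysosomal protein of macrophages, read 7.85, 7.81 and 7.55 in sham hearts and 8.57, 8.31 and 8.25 in TAC hearts, a difference of 0.64 ± 0.16. C1qa and C1qc, chains of complement C1q, differed by 0.79 ± 0.20 and 0.54 ± 0.17, and Lyz2, lysozyme, by 0.63 ± 0.20. Fcrls, a scavenger receptor of tissue macrophages, came closer to the threshold at 1.02 ± 0.20 (adjusted p = 0.0714). Besides Cd72 none of the 7 B cell markers was called, and Cd22, Cd79b and Blk differed by 0.14, 0.11 and 0.08. Of 11 T and NK cell markers 0 were called (median 0.08) and of 10 neutrophil and mast cell markers 0 (median 0.00). The mean level ran from 4.68 to 5.05 for the B cell markers and from 4.39 to 4.61 for the T and NK cell markers. Both lay below the median over all genes, so a missing call says little about these cells. The part of a changed cell mix in the rises of Cd52 and Cd72 was not tested.

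Inflammatory signals gave small medians. Of 21 chemokines and cytokines 0 were called, 16 lay above 0 (57% of all genes) and 3 did not overlap upward (9.03% of all genes). The median was 0.18. Cxcl16, the ligand of the receptor CXCR6, had the smallest p, at 7.10, 7.09 and 7.07 in sham hearts and 7.95, 7.99 and 7.54 in TAC hearts. Its groups lay well apart, and the difference was 0.74 ± 0.17 at an adjusted p of 0.103. Of 16 interferon response genes 0 were called, all 16 lay above 0 and 2 did not overlap upward, with a median of 0.24. The list's mean stood 0.46 and 0.35 above sham in TAC replicates 1 and 2 and -0.11 from it in replicate 3. Oasl2, Oas1a, Irf7 and Bst2 each overlapped between the groups, with differences from 0.29 to 0.43. Psmb10, a catalytic subunit that replaces its constitutive partner in the immunoproteasome, did rise, by 0.72 ± 0.10. It read 7.65, 7.81 and 7.82 after sham surgery and 8.61, 8.51 and 8.32 after TAC. It was the 1 called gene of 13 proteasome genes, whose median was 0.00, and the activator subunit Psme1 differed by -0.31 ± 0.08.

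The largest called fall was that of Txnip, thioredoxin-interacting protein, which restrains glucose uptake and binds thioredoxin. It read 17.65, 17.10 and 16.85 in sham hearts and 15.12, 14.58 and 14.72 in TAC hearts. The gap between the groups exceeded 1.5 units, and TAC replicates 2 and 3 stood lowest. Txnip fell by 2.39 ± 0.27, which was 5.25-fold (adjusted p = 0.0356), and it was called in 14 of the 22 alternative settings, more than any other gene. Its promoter is shown because the gene is known as a sensor of glucose through carbohydrate response elements. The 250 bases come from RefSeq (GRCm38.p6, chr3:96557707-96557956, plus strand), with 4 motif matches in capitals.
Txnip: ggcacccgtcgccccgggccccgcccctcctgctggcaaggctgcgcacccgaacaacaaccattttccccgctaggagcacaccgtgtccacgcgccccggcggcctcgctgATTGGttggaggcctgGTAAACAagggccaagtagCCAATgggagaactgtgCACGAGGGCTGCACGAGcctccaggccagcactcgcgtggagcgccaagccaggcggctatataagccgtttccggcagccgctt

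The last capitals, CACGAGGGCTGCACGAG, begin at position -85 and match the carbohydrate response element, searched on both strands as CACGNG, 5 bases of any kind and CACGNG again. Only 15 of 32851 promoters held a match (0.0457%), and Txnip was the 1 gene among the 20 called lower that had a promoter in the table. CCAAT, the box bound by nuclear factor Y, was matched at -102 and on the other strand at -137, and was found in 33.8% of promoters. GTAAACA, the letters searched for a FOXO site, begins at -121 and was found in 3.17%. Bcl2l11, which also fell, holds these letters too, as does Emp1, which rose.

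The other genes of glucose handling did not pass. Of 20 genes of glucose uptake and glycolysis Txnip was the 1 called, and the median was -0.07. Slc2a4, the insulin-responsive glucose transporter GLUT4, read 12.65, 12.68 and 12.72 in sham hearts and 12.45, 11.87 and 12.12 in TAC hearts, a difference of -0.54 ± 0.16 (adjusted p = 0.181). Slc2a1, the basal transporter GLUT1, differed by -0.16 ± 0.12, and Pfkp, a platelet-type phosphofructokinase, by 0.51 ± 0.17. Pdk4, the kinase that shuts pyruvate out of the citric acid cycle, spread widely in both groups, at 17.26, 15.80 and 18.25 after sham surgery and 16.17, 14.97 and 14.90 after TAC. The groups overlapped, and its difference of -1.76 ± 0.58 had an adjusted p of 0.242. Phkg1, the catalytic subunit of muscle phosphorylase kinase, fell by 0.88 ± 0.12, from 7.61, 7.26 and 7.43 to 6.56, 6.46 and 6.65. It was the 1 called gene of 10 in glycogen metabolism. Gys1 (glycogen synthase) and Ugp2 (which makes its substrate, UDP-glucose) differed in opposite directions, by -0.46 ± 0.11 and 0.50 ± 0.14.

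Fatty acid genes lay lower after TAC, by small amounts in nearly every member. Of 22 genes of fatty acid uptake and oxidation 1 fell, and the median was -0.33. Below 0 lay 20 of them (11610 of 26989 genes did), and 16 did not overlap downward, against 7.07% of all genes. The gene that fell was Slc27a1, the fatty acid transport protein FATP1. It read 10.06, 9.84 and 10.09 in sham hearts and 9.22, 8.69 and 9.23 in TAC hearts. The sham hearts were close together and TAC replicate 2 was lowest, with a fall of 0.95 ± 0.15 (adjusted p = 0.0374) and a difference of -0.77 without that heart. Etfdh, which passes electrons from fatty acid oxidation to ubiquinone, read 14.59, 14.56 and 14.49 against 14.20, 13.91 and 14.02, a difference of -0.50 ± 0.09 at an adjusted p of 0.0604. Slc25a20, the carnitine carrier of the inner mitochondrial membrane, and Eci2, an enoyl-CoA isomerase, differed by -0.64 ± 0.13 and -0.39 ± 0.08. Cpt1b, the muscle enzyme that commits fatty acids to oxidation, differed by only -0.16 ± 0.08. Ppargc1a, the coactivator PGC-1 alpha of mitochondrial genes, differed by -0.66 ± 0.18, from 15.08, 15.09 and 14.94 to 14.47, 14.11 and 14.54.

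Some enzymes that release fatty acids from their carriers and stores differed by more. Acot1, the cytosolic acyl-CoA thioesterase, fell by 1.35 ± 0.18, from 8.70, 8.28 and 8.60 to 7.12, 7.40 and 7.0 (2.56-fold, adjusted p = 0.0356). Among TAC hearts replicate 2 was the highest for Acot1, whereas it was the lowest for the mean of the oxidation genes. Acot2, its near-identical mitochondrial paralog, read 17.07, 16.69 and 16.85 in sham hearts and 15.77, 15.83 and 15.27 in TAC hearts, a difference of -1.24 ± 0.23 (adjusted p = 0.068). Because the sequences are so alike, a probe set of 1 may also read the other. Pnpla2, adipose triglyceride lipase, read 13.84, 13.92 and 13.85 against 13.19, 12.68 and 12.35. Its sham hearts were almost identical and its TAC hearts were spread, with a difference of -1.13 ± 0.21 (adjusted p = 0.068). Lipe, hormone-sensitive lipase, differed by -0.65 ± 0.15. Over all 18 genes of this group 1 fell, and the median was -0.05, which reached 0.00 without TAC replicate 2.

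Genes that break down branched-chain amino acids lay lower without passing the test. Of 19 genes 0 were called, all 19 had a difference below 0 (11610 of 26989 genes did) and 15 did not overlap downward (7.07% of all genes), with a median of -0.33 and a range from -0.89 to -0.08. The list's mean stood -0.29, -0.58 and -0.30 from sham in TAC replicates 1, 2 and 3. Mccc1, a subunit of methylcrotonyl-CoA carboxylase in leucine breakdown, came closest to the threshold, at 10.89, 10.86 and 10.90 in sham hearts and 10.49, 10.13 and 10.42 in TAC hearts. Its difference was -0.54 ± 0.09 at an adjusted p of 0.0502. Bcat2, the mitochondrial transaminase of the first step, differed by -0.57 ± 0.11. Bckdhb, a subunit of the branched-chain ketoacid dehydrogenase, differed by -0.71 ± 0.13 and Ppm1k, the phosphatase that activates that complex, by -0.89 ± 0.19. Aldh6a1, of valine breakdown, differed by -0.62 ± 0.13. Adhfe1, a mitochondrial hydroxyacid transhydrogenase that is not in this list, differed by -0.92 ± 0.18 at an adjusted p of 0.0799.

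The citric acid cycle and the respiratory chain followed with smaller differences. Of 16 citric acid cycle genes 0 were called, all 16 lay below 0 and 11 did not overlap downward, with a median of -0.22. Among all genes 11610 of 26989 lay below 0 and 7.07% did not overlap downward. Cs, citrate synthase, read 18.20, 18.14 and 18.16 against 17.93, 17.81 and 17.56, a difference of -0.40 ± 0.11. Suclg2, Idh3a and Sucla2 differed by -0.37, -0.32 and -0.31. Of 16 genes of oxidative phosphorylation 0 were called and 11 did not overlap downward, with a median of -0.20. Uqcrc1, a core subunit of complex III, differed by -0.34 ± 0.09 and Ndufs1, of complex I, by -0.26 ± 0.09. TAC replicate 2 was the lowest TAC heart for 19 of 22 fatty acid genes, 17 of 19 branched-chain genes, 13 of 16 cycle genes and 14 of 16 respiratory chain genes. Without that heart the 4 medians were -0.25, -0.24, -0.18 and -0.14, and over all genes it was the lowest TAC heart for 8519 of 26989. Markers of heart muscle cells, 9 measured and 0 called, had a median difference of -0.03 (-0.02 without that heart), and their part in the metabolic differences was not tested.

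Other enzymes of metabolism were among the called falls. Maob, the monoamine oxidase of the outer mitochondrial membrane that makes hydrogen peroxide as it breaks down amines, read 12.25, 11.79 and 11.80 in sham hearts and 10.84, 10.71 and 11.03 in TAC hearts. The 2 groups were far apart, and Maob fell by 1.09 ± 0.16 (adjusted p = 0.0374). Nt5e, the ecto-enzyme CD73 that turns AMP into adenosine, fell by 1.10 ± 0.14, from 8.69, 8.13 and 8.49 to 7.25, 7.29 and 7.48. Ampd3, which deaminates AMP inside the cell, fell by 0.47 ± 0.08, and Adk, which phosphorylates adenosine, differed by -0.33 ± 0.12. Dglucy, a mitochondrial D-glutamate cyclase, fell by 0.65 ± 0.10 from 8.48, 8.26 and 8.41 to 7.82, 7.53 and 7.85. Flvcr2, a choline transporter, and Xk, a membrane protein of the Kell blood group complex, fell by 0.71 ± 0.10 and 0.41 ± 0.06.

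Corin, the cardiac protease that cleaves atrial natriuretic peptide into its active form, fell by 1.05 ± 0.15 (2.08-fold, adjusted p = 0.0356). Its sham hearts read 14.03, 13.88 and 13.87 and its TAC hearts 12.92, 12.49 and 13.20. All TAC hearts lay below sham, with replicate 2 lowest, and the difference without that heart was -0.87. It was the 1 called gene of 7 that process, bind or transduce natriuretic peptides. Mme, the protease neprilysin that degrades them, differed by -0.33 ± 0.16, Pde5a, which breaks down cyclic GMP, by -0.18 ± 0.12 and Furin, a convertase, by -0.07 ± 0.08. Pde3a, the phosphodiesterase of cyclic AMP that cyclic GMP inhibits, fell by 0.69 ± 0.10. It was among the most even of the called genes, at 11.81, 11.95 and 11.94 in sham hearts and 11.18, 11.21 and 11.23 in TAC hearts. Of 11 genes for nitric oxide, adenosine and adrenergic signalling 2 fell, Nt5e and Maob, and Adcy6, a cardiac adenylyl cyclase, differed by -0.51 ± 0.15.

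In calcium handling Stim2, a sensor of calcium in the endoplasmic reticulum that opens store-operated channels, rose by 0.45 ± 0.07, from 9.07, 9.11 and 9.14 to 9.62, 9.62 and 9.42. It was the 1 called gene of 17. Ryr2, the calcium release channel, read 17.34, 17.28 and 17.39 in sham hearts and 17.01, 16.85 and 17.06 in TAC hearts, a difference of -0.36 ± 0.08 at an adjusted p of 0.0832. Hrc and Trdn, its luminal partners, differed by -0.32 ± 0.12 and -0.24 ± 0.10. Of 15 potassium and sodium channel genes 0 were called, 14 lay below 0 (11610 of 26989 genes did) and 3 did not overlap downward (7.07% of all genes), with a median of -0.22, or -0.10 without TAC replicate 2. Kcnd2 and Kcnd3, pore subunits of the transient outward potassium current, differed by -0.85 ± 0.28 and -0.31 ± 0.09. Kcnd2 read 11.49, 11.31 and 11.62 in sham hearts and 11.13, 9.92 and 10.81 in TAC hearts, with replicate 2 far below the rest. Kcnj3, a channel subunit of atrial muscle, differed by -1.07 ± 0.39.

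Genes that respond to glucocorticoids and FOXO factors had a median difference of -0.23 over 16 members, of which Klhl38 fell. Zbtb16, a zinc finger transcription factor induced by glucocorticoids, had the largest difference below 0 of those near the threshold, at 12.64, 11.53 and 11.28 in sham hearts and 9.22, 8.72 and 10.75 in TAC hearts. Both groups were wide but apart, with a difference of -2.26 ± 0.48 at an adjusted p of 0.0878. Foxo3, a FOXO factor itself, differed by -0.52 ± 0.10 (adjusted p = 0.0824), and Sgk1, a kinase induced by corticosteroids, by 0.61 ± 0.19. In sham hearts the list's mean stood 0.26 above the group's mean in replicate 1 and -0.20 from it in replicate 2, a spread as wide as some TAC differences. Bcl2l11, the death-promoting protein BIM, fell by 0.62 ± 0.09, from 7.57, 7.32 and 7.50 to 6.88, 6.72 and 6.92.

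Cited2, a coactivator that restrains hypoxia-inducible factor 1, differed by -1.74 ± 0.32 (adjusted p = 0.0659), with 12.76, 12.65 and 12.34 in sham hearts against 11.50, 10.49 and 10.54. Klf11, a zinc finger factor that answers to TGF-beta, fell by 0.64 ± 0.10, from 7.94, 7.83 and 7.96 to 7.50, 7.08 and 7.25. Rnf122, a RING finger ubiquitin ligase, fell by 1.08 ± 0.16, from 8.28, 8.13 and 7.98 to 7.19, 7.17 and 6.79. Arhgap20 fell by 1.05 ± 0.16, from 11.26, 11.34 and 11.28 to 10.36, 10.02 and 10.36. The sham hearts of Arhgap20 were nearly identical and the gap to the TAC hearts was close to 1 unit.

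The other named falls were Zc3h6 (0.89), Fam214a (0.89), Apex2 (0.75), Prrg1 (0.58), Ctage5 (0.53) and Prag1 (0.39), each given as the size of its fall. Zc3h6 is a CCCH zinc finger protein, Apex2 a nuclease that repairs abasic DNA, Prrg1 a membrane protein with a Gla domain, Ctage5 a cargo receptor of the endoplasmic reticulum and Prag1 a pseudokinase. The remaining differences near the threshold were Ppip5k2, an inositol pyrophosphate kinase (-1.19 ± 0.22), Kcna1, a potassium channel (-0.88 ± 0.19), Rbfox1, a splicing factor (-0.88 ± 0.17), and Pim3, a kinase (-0.87 ± 0.16). Those above 0 were Mest, an imprinted hydrolase (0.98 ± 0.18), Bdh1, which oxidizes the ketone body beta-hydroxybutyrate (0.94 ± 0.20), and Tubb2a, a beta-tubulin (0.93 ± 0.20).

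Stress genes lay on both sides of 0. Of 20 heat shock and unfolded protein response genes 0 were called and the median was -0.16, or -0.07 without TAC replicate 3. Hspa5, the chaperone BiP of the endoplasmic reticulum, read 14.07, 14.20 and 13.78 in sham hearts and 13.47, 13.40 and 13.42 in TAC hearts, a difference of -0.58 ± 0.15. Canx (calnexin) and Dnajb9 (a BiP cofactor) differed by -0.26 ± 0.07 and -0.79 ± 0.22, and Atf4, a translation-controlled transcription factor, by 0.43 ± 0.12. Of 21 oxidative stress and detoxification genes 1 rose, with a median of 0.09. Ephx1, microsomal epoxide hydrolase, rose by 0.53 ± 0.08, from 10.46, 10.59 and 10.35 to 11.04, 10.93 and 11.02. Ephx2, the soluble epoxide hydrolase, differed the other way, by -0.69 ± 0.12 at an adjusted p of 0.0624, from 14.36, 14.25 and 14.34 to 13.89, 13.35 and 13.65. The glutathione transferase genes Gstm1 and Gstm2, which are close paralogs, differed by -0.57 ± 0.10 and -0.39 ± 0.10.

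Immediate early genes, the first transcription factors induced by growth signals, had 0 called of 14 measured members and a median of 0.35. All 14 lay above 0 (57% of all genes) and 7 did not overlap upward (9.03% of all genes). Fosl2, Btg2, Klf4 and Jund, which had the smallest p of the list, differed by 0.48, 0.43, 0.61 and 0.28, each without overlap. Of 18 proliferation genes 0 were called, all 18 lay above 0 (57% of all genes) and 10 did not overlap upward (9.03% of all genes). Their median was 0.19, at a mean level from 5.34 to 5.77. Mki67, a marker of dividing cells, read 6.38, 5.77 and 6.34 in sham hearts and 6.43, 7.61 and 7.78 in TAC hearts. TAC replicate 1 lay at the sham level and the others above it, so the difference of 1.11 ± 0.47 had an adjusted p of 0.368. Of 16 clock genes 0 were called, and the median of -0.10 turned to 0.13 without TAC replicate 2. Nr1d1, the repressor REV-ERB alpha, read 11.24, 11.26 and 10.44 after sham surgery and 9.41, 9.50 and 10.82 after TAC, with overlap. Bhlhe40, a repressor of clock genes, differed by 1.11 ± 0.27, from 8.19, 8.71 and 7.56 to 8.95, 9.15 and 9.68.

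Of the 48 called genes 11 were small RNAs, pseudogenes or RNAs with no known product. The 4 small nucleolar RNAs among them all rose, out of 890 tested, whose median difference was 0.04. They guide chemical modification of other RNAs, mostly ribosomal, and are cut from introns of host genes. Snord42a had the largest rise, by 1.14 ± 0.17 from 12.88, 12.82 and 12.39 to 14.02, 14.08 and 13.42. Gm24494, Snord55 and Snord69 rose by 0.96, 0.86 and 0.78, and the TAC hearts of Snord69 agreed within 0.1 units, at 13.67, 13.65 and 13.60. These 4 genes were named after their values had been seen. Gm11605, a pseudogene, rose as well, and 5 RNAs or pseudogenes fell, Gm24474 the most at -1.41 ± 0.22. Probes of pseudogenes may also read their parent genes.

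Mir325 was the 1 gene called of 543 microRNA genes, and it too was named after its value had been seen. It rose by 0.90 ± 0.15 (adjusted p = 0.0422), from 11.75, 11.50 and 11.91 to 12.80, 12.50 and 12.55. Its mature sequences from RefSeq (GRCm38.p6, minus strand of chromosome X) are shown because the seed, bases 2 to 8 in capitals, sets which messages a microRNA can pair with. The 3p arm lies at chrX:105379105-105379126 and the 5p arm at chrX:105379142-105379164. Whether the probes read an arm, the hairpin or the primary transcript was not known here.
mmu-miR-325-5p: cCUAGUAGgugcucaguaagugu
mmu-miR-325-3p: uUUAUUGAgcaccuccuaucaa

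The wild type TAC hearts differed from one another more in some programs than in others. For 29 of the 48 called genes TAC replicate 2 lay farthest from the sham mean, for 13 it was replicate 1 and for 6 replicate 3. Activated fibroblast markers, of which 8 were measured and 0 called, had a median of 1.55. It was 0.96 without TAC replicate 2 and 2.21 without TAC replicate 3. The mean of these markers read 8.12, 8.10 and 7.88 in sham hearts and 9.37, 10.85 and 8.41 in TAC hearts. Meox1, a homeobox factor of activated fibroblasts, followed the same order at 9.62, 10.74 and 8.41, against 7.89, 7.86 and 7.78 in sham hearts, with a difference of 1.74 ± 0.42 (adjusted p = 0.118). Markers of fibroblasts at large, 9 measured and 0 called, had a median of 0.42. Tcf21, a transcription factor of resident fibroblasts, differed by 0.42 ± 0.13.

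Atrial muscle genes varied more between hearts of 1 group than between groups. The mean of 8 atrial markers read 12.76, 11.86 and 10.56 in sham hearts, and ran from 10.02 in TAC replicate 1 to 11.95 in TAC replicate 3, with replicate 2 between them. Myl7, the atrial regulatory light chain, ran from 14.43 in sham replicate 1 to 11.23 in sham replicate 3, and from 10.81 to 12.33 in TAC hearts. Of the 8 markers 0 were called, and the median was -0.99 with Nppa, also a gene of the hypertrophy list, included. That median was -0.28 without sham replicate 1 and -0.39 without TAC replicate 1. With the mean of Myl7, Sln and Myl4 alone as a covariate limma called 0 genes, against 48 without it. Genes at an unadjusted p below 0.05 by limma numbered 3252, against 3330 without it. The differences of the called genes themselves moved little with the covariate: Acta1 gave 2.17, Txnip -2.38, Corin -0.97 and Klhl38 -1.37.

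Markers of other tissues that a heart sample could carry were not called. The 9 skeletal muscle markers had a mean level between 5.86 and 6.02 on the 6 arrays, and Tnnc2, Tnnt3 and Mybpc1 differed by 0.17, 0.06 and 0.04. Adipocyte markers had a mean of 6.73, 6.25 and 6.52 in sham hearts and 6.30, 6.32 and 6.37 in TAC hearts, with a median difference of -0.16, or -0.30 without sham replicate 2. The mean of the mesothelial markers ranged from 4.72 to 5.52 over the 6 arrays, and TAC replicate 3 and sham replicate 1 stood highest. The 5 Schwann and nerve markers had a median difference of -0.09, the 3 red cell markers 0.07 and the 7 dendritic cell genes 0.13. Of the Schwann and nerve markers 3 lay below 0 and 2 above it, and 2 did not overlap downward (7.07% of all genes). Kcna1 had the lowest difference of them, at -0.88. Their mean stood -0.22, -0.19 and -0.28 from sham in TAC replicates 1, 2 and 3. No marker reads 0 on an array, where every probe gives some signal.

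**Figure D4:**
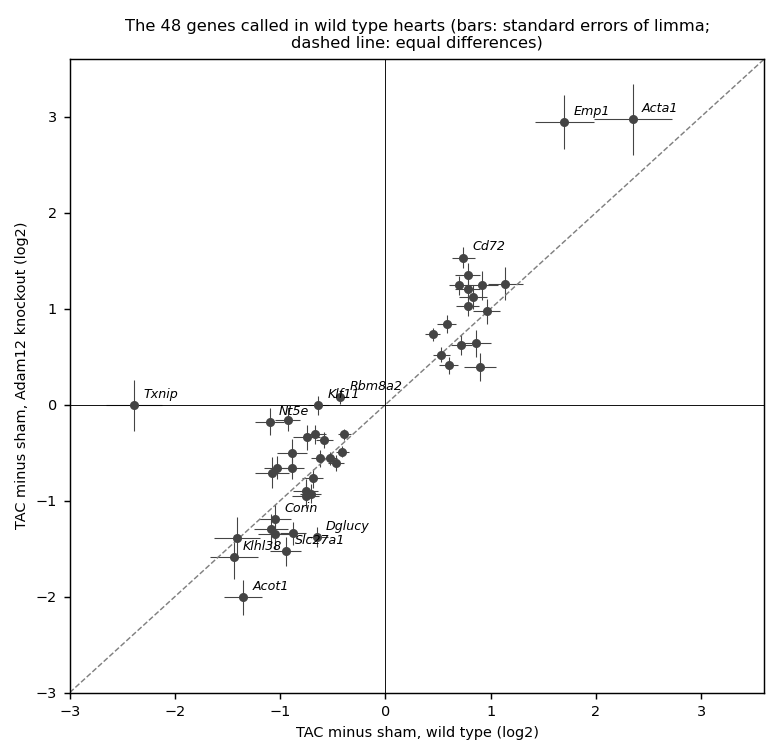
TAC minus sham (log2) of the 48 genes called in wild type hearts, in wild type hearts on the x axis and in Adam12 knockout hearts on the y axis, with standard errors of limma and a dashed line of equal differences. Most points lie near or beyond the line, and Txnip lies at -2.39 in wild type and -0.01 in knockout hearts. No gene passed the test of the difference between the genotypes.

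In the Adam12 knockout hearts 40 of the 48 genes were called too, where 12.8% of all genes were. The 2 differences come from separate arrays, but both tests use 1 estimate of the spread over all 12 arrays, on which the 48 genes were chosen, so the 2 sets of calls are not independent. The difference was larger in the knockout for 28 of the 48. Acta1 differed there by 2.97 ± 0.37, Emp1 by 2.94 ± 0.28, Cd72 by 1.53 ± 0.11 and Acot1 by -2.01 ± 0.18. Txnip, Nt5e, Klf11 and Apex2 were the named genes not called in the knockout, at -0.01 ± 0.27, -0.18 ± 0.14, -0.01 ± 0.10 and -0.34 ± 0.13. In the knockout Txnip averaged 15.17 ± 0.43 after sham surgery and 15.16 ± 0.40 after TAC (SD, n = 3 each), near the 14.81 ± 0.28 of wild type TAC hearts. Klf11 likewise averaged 7.35 ± 0.10 and 7.34 ± 0.05 in the knockout, against 7.91 ± 0.07 and 7.28 ± 0.21 in wild type sham and TAC hearts.

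The test of the difference between the TAC effects of the genotypes called 0 of 26989 genes by limma, with 2962 at an unadjusted p under 0.05 and a smallest adjusted p of 0.259. That value was shared by Txnip (2.38 ± 0.38), Nt5e (0.91 ± 0.19), Klf11 (0.62 ± 0.14), Cd72 (0.78 ± 0.16) and Dglucy (-0.73 ± 0.15), given as knockout minus wild type difference. The effects in these genes are therefore not shown to differ between the genotypes. Without wild type TAC replicate 2 this test called 151 genes, and in the 11 other leave-one-out fits 0.

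**Figure D5:**
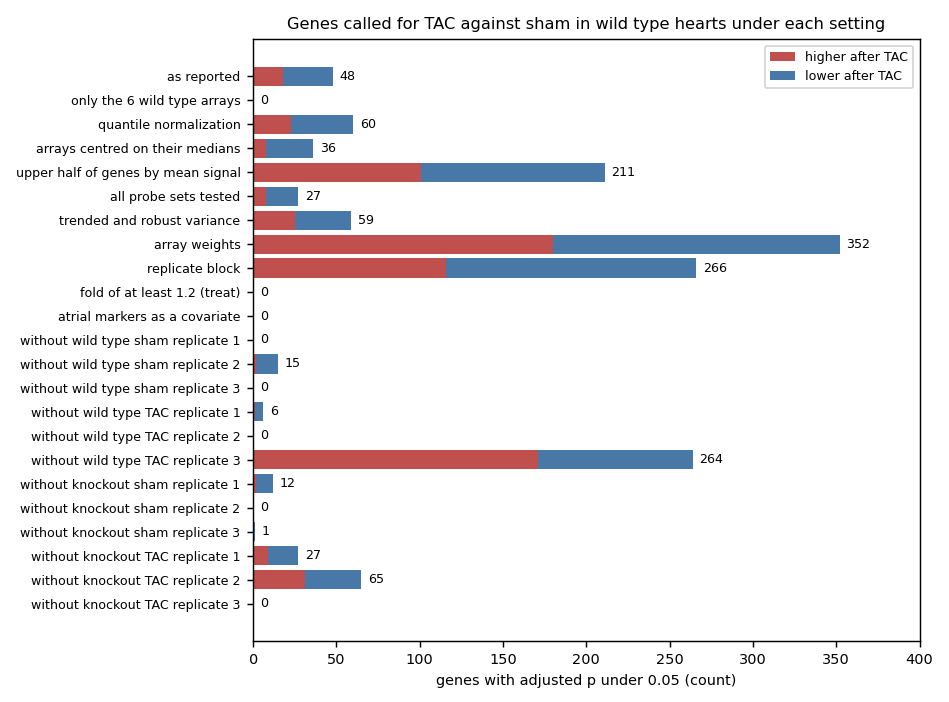
Number of genes called for TAC against sham in wild type hearts (adjusted p under 0.05) as reported and under 22 alternative settings, with genes that rose in red and genes that fell in blue. The count ran from 0 in 8 settings to 352 with array weights.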

How the data were processed

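The authors deposited log2 signals for 65527 probe sets on each of 12 Clariom D arrays. Per the submitters' processing notes the values came from Affymetrix Expression Console. Its version, normalization and summarization are not given in the sources used here, and the log2 scale was read from the range of the values. Of 58795 probe sets other than the 6732 controls, 27268 carried 1 symbol in the platform annotation, 1932 several and 29595 none. The brightest probe set over the 12 arrays stood for a gene, which gave 26989 genes (198 had several probe sets), and 757 symbols were updated through Entrez IDs.

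Groups and replicate numbers came from the sample titles. A limma 3.58.1 model in R 4.3.3 with 1 mean for each of 4 groups over all 12 arrays (residual degrees of freedom 8, prior 3.29) gave 2-sided tests with Benjamini-Hochberg adjustment over all genes, and the threshold for a call was an adjusted p under 0.05. Errors after ± are standard errors of that model unless marked SD. The number of arrays limits the precision. The procedure was tested on simulated data in which a gene had the same spread in every array. Weights estimated for the real arrays ran from 0.44 to 1.58, and the simulation does not cover such differences. The lowest weight was that of wild type TAC replicate 3, while wild type TAC replicate 2 had 1.51.

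The 46 gene lists held 754 genes, 606 with a probe set to themselves, 21 with only a shared one and 127 not analysed here. Lists were described by counts and medians with no set test. The members, lists and tests were chosen with earlier results of these data known. Named were all called genes outside predicted genes, pseudogenes and small RNAs, the 10 largest differences in each direction with adjusted p from 0.05 to 0.1 and no overlap, up to 4 members with the smallest p per list, and a fixed panel of heart genes. Of that panel Ankrd1 and Hbegf are not analysed here.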

Additional observations from a re-analysis of the deposited data

Results flagged for a closer look

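A fit of all 58795 probe sets other than controls, which the comparison of genes does not use, called 59 for TAC against sham in wild type hearts. Of these, 32 carried no gene symbol in the annotation used here, which is 0.108% of the 29595 such probe sets, beside 0.099% of the 27268 with 1 symbol. They were set apart because they carry signal outside the main measurement. Of the 32 unnamed probe sets 29 fell and 3 rose. The largest fall was -2.39 ± 0.32, in a probe set that read 12.42, 11.44 and 11.14 in sham hearts and 9.49, 9.07 and 9.27 in TAC hearts. The largest rise was 0.99 ± 0.15. What these probe sets measure is not known here.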

How the results depend on the processing

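The count of 48 genes depended on the setting more than the differences did, which many of the settings cannot change. It was 0 with only the 6 wild type arrays (2729 genes at an unadjusted p under 0.05 by limma), 0 when a fold of at least 1.2 was tested (482) and 0 with atrial markers as a covariate (3252). It was 27 with all probe sets tested, 36 with arrays centred on their medians, 60 with quantile normalization and 59 with trended and robust variance. It was 211 among genes above the median in mean signal and 352 with array weights, and in both all 48 genes remained. Leaving out 1 of the 12 arrays at a time gave from 0 to 264 genes, and for the interaction from 0 to 151, the latter without wild type TAC replicate 2. With the replicate number as a block the count was 266 and all 48 genes remained. Of 74 named genes, which are those called, those nearest the threshold and the panel of heart genes, 19 passed with the block and not without it, among them Postn (adjusted p = 0.0291), Col4a2 (0.0271), Sparc (0.027) and Nppb (0.049). The labels do not say that a replicate number marks a shared animal, litter or day. Deviations of same-numbered sham and TAC hearts from their group means correlated from -0.02 to 0.19 in the wild type, over 0.1 in 2 of 3 pairs, and from 0.14 to 0.25 in the knockout, over 0.1 in 3 of 3. Within its genotype 3 of 6 wild type and 6 of 6 knockout hearts correlated best with the heart of their own number, a hint of pairing from the data and not from the design. The wild type hearts did not meet the condition of every pair over 0.1, so the replicate number was left out of the reported fit. The interaction had 0 genes in every setting that kept all arrays and allowed the test. None of these 74 genes turned its direction in any of the 22 settings, many of which leave the differences unchanged. The other genes named as members of lists were not followed through these settings. Scaling moved the median of all genes by at most 0.04. With 3 hearts per group, a difference that missed the threshold is not shown to be absent, and Nppa, Myh6 and Atp2a2 lie near the top of the signal scale.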
